A study of Mus musculus with 25 samples.

Results

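The cytochromes P450 of the Cyp2a, Cyp2b, Cyp2c, Cyp2d, Cyp2g, Cyp2j and Cyp3a subfamilies were followed in livers of male C57BL/6J mice. A gene entered by its symbol, was protein-coding and had at least 10 counts in at least 3 of the 25 libraries. Of 56980 genes in the count table, 48 carried such a name, and 40 reached the minimum. Mice were 8 weeks old at the start. In the first batch, 6 groups of 3 mice were compared after 12 weeks. One group ate normal chow. The other 5 groups all received FAT-MASH, which combined chow rich in fat, sucrose and cholesterol with fructose and glucose in the drinking water and a weekly intraperitoneal injection of carbon tetrachloride (CCl4). Of these, 1 group drank no mannose, 2 groups drank 5% or 20% mannose for all 12 weeks (prevention), and 2 groups drank 5% or 20% mannose for the last 6 weeks only (therapy). In the second batch, mice on normal diet drank no mannose (2 mice), 5% mannose (2 mice) or 20% mannose (3 mice). The batches are the dates given in the labels. Mice were housed in shared cages, and the labels call the samples biological replicates, so the p-values measure the spread between these samples.

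CYP2 and CYP3 enzymes are haem monooxygenases of the endoplasmic reticulum that take electrons from the reductase Por and oxidise drugs, steroids, fatty acids and environmental chemicals. Most are made in hepatocytes. The nuclear receptors Nr1i3 (CAR) and Nr1i2 (PXR) induce several of them, Cyp2b10 and Cyp2c29 being usual reporters of CAR and Cyp3a11 of PXR. Other members are better known for endogenous substrates, such as the arachidonic acid epoxygenases of the Cyp2c and Cyp2j subfamilies and Cyp2c70, which makes muricholic acids from primary bile acids. Several differ between the sexes in mouse liver: Cyp2d9 is male-predominant, and Cyp2a4, Cyp2b9 and Cyp2b13 are female-predominant.

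Many of the genes lie in tandem clusters with close copies. In the authors' GRCm39 coordinates, the 4 Cyp2a members, the 3 Cyp2b members and Cyp2g1 were on chromosome 7, the 13 Cyp2c members on chromosome 19, the 8 Cyp2d members on chromosome 15, the 4 Cyp2j members on chromosome 4 and the 7 Cyp3a members on chromosome 5. The 8 genes under the minimum were Cyp2b19, Cyp2b23, Cyp2c65, Cyp2c66, Cyp2j7, Cyp2j11, Cyp2j12 and Cyp2j13. Cyp2c65, the nearest of them, had 10 counts or more in 2 libraries and at most 16 counts. Just inside were Cyp2b13 and Cyp2d34, each with 10 counts or more in 3 libraries and at most 16 and 17 counts. The counting command in the file header sets no option for strand or for reads that fit several genes. At the tool's defaults a read that maps equally well to 2 genes is not counted, so near-identical copies would lose the reads they share. In the reference transcripts, 26 of the 40 members had at least 1 stretch of 100 bases that also occurs in another gene, and 14 had none. The share of such stretches was above 10% in 8 members and above 25% in 2, Cyp2c40 at 44.1% and Cyp2c69 at 36.3%, and levels of those 2 genes are uncertain. It was 11.2% for Cyp2a4, 14.4% for Cyp2a5, 9.40% for Cyp2c50, 7.59% for Cyp2c54 and 9.86% for Cyp2d9. Without strand, reads from an overlapping or antisense transcript cannot be told apart from those of the member itself.

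How close the copies are is visible in their promoters. The sequences of 2 pairs are shown because Cyp2a4 rose on the regimen while the values of Cyp2a5 were lower and not called, and because Cyp2c37 and Cyp2c50 both fell. Each is the 250 bases before the RefSeq start of the gene in GRCm38.p6, plus strand, and capitals mark bases with no identical partner in the alignment of the pair. Cyp2a4 lies at chr7:26306942-26307191 and Cyp2a5 at chr7:26835089-26835338.
Cyp2a4: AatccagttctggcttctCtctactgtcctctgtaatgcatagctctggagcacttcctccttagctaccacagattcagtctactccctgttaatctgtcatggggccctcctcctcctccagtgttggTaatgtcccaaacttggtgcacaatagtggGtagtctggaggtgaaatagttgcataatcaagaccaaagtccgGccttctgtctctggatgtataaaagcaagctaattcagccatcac
Cyp2a5: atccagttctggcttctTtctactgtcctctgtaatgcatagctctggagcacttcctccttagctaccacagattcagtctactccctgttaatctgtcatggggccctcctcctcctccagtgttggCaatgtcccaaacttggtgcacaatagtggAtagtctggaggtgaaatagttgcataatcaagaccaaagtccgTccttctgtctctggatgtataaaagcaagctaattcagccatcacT
Over 251 aligned columns these 2 promoters were 97.6% identical, with 4 differing bases and 2 gap columns. Cyp2c37 lies at chr19:39992174-39992423 and Cyp2c50 at chr19:40089429-40089678.
Cyp2c37: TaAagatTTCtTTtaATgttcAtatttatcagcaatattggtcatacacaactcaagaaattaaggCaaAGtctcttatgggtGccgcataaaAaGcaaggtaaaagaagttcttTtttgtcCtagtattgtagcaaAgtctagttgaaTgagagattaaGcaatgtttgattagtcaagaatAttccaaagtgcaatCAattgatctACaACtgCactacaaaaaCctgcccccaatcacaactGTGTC
Cyp2c50: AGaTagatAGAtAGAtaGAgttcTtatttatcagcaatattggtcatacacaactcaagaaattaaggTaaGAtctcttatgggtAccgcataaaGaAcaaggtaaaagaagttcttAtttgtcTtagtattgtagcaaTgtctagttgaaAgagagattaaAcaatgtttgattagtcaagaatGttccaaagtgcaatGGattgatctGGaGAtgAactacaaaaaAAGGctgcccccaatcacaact
This pair was 84.3% identical over 255 columns, with 30 differing bases and 10 gap columns. Of the 40 members, 34 had a promoter in the RefSeq table. Motifs were searched on both strands in 300 bases, from 250 before to 50 after the start. TATAAA was found in 20 of the 34 member promoters and in 14.2% of all 27025 promoters. CAAAGTCCA, a form of the site of the hepatocyte factor Hnf4a, was found in 7 of the 34, those of Cyp2c40, Cyp2c67, Cyp2c68, Cyp2c69, Cyp2c70, Cyp3a11 and Cyp3a16, and in 0.477% of all promoters. TTCNNNGAA, the letters bound by STAT factors, was found in 0 of the 34 and in 8.47% of all promoters. The HNF1 site and the direct repeat bound by CAR were also found in 0, and in 0.0074% and 0.0148% of all promoters. At the shares of these last 2 motifs, 0 of 34 says nothing particular about the members. Each motif was searched in a single spelling within 300 bases, so other spellings and more distant sites were not covered. These matches are descriptions of letters in the window.

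The 18 libraries of the first batch held 31298299 to 56010646 counts, and the 7 of the second held 35971380 to 49752882. Levels are given as CPM, counts scaled to a common library size, with factors by the trimmed mean of M-values (TMM) within each batch. Summed levels of 12 hepatocyte markers lay between 96599 and 146971 CPM in all libraries. In bulk tissue, fewer cells of a type and less RNA per cell cannot be told apart. Normal diet replicate 4, in the second batch, stood apart from the other normal diet libraries: Cyp2c50 was at 438 CPM there and at 1076 CPM in replicate 5, and Cyp2c54 was at 139.8 and 376 CPM. Counts of calls without it are given beside the comparisons of the second batch.

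On normal diet in the first batch, the level per kilobase was highest for Cyp3a11, at 1292 ± 368 CPM per kilobase (SD, n = 3). The length is that of all annotated exons of a gene together, as the count table gives it, so a gene with unused long exons reads low, and the order of levels depends on it. Next came Cyp2d9 at 726 ± 6.85, Cyp2c29 at 629 ± 71.5, Cyp2d10 at 608 ± 71.1, Cyp2d26 at 579 ± 28.6 and Cyp3a25 at 523 ± 33.4 CPM per kilobase. The ranges of mean ± SD of Cyp2c29, Cyp2d10 and Cyp2d26 overlapped, as did those of Cyp2d26 and Cyp3a25, so neighbours among these 4 genes do not differ beyond their spread. At the other end, Cyp2b9, Cyp2j8 and Cyp2d34 were below 0.3 CPM per kilobase, and Cyp2b13 had 0 counts in all 3 libraries. On the CPM scale, 18 members were above 100 and 15 were below 10.

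Together the 40 members took 1.55% to 1.94% of all counts on normal diet and 1.20% to 1.43% on FAT-MASH, both in the first batch. With mannose on FAT-MASH they took 1.06% to 1.30% (5% prevention), 1.38% to 1.56% (20% prevention), 1.00% to 1.16% (5% therapy) and 1.05% to 1.26% (20% therapy). Cyp3a11 alone supplied a large part of these counts, 25.9% to 36.8% on normal diet, 38.8% to 41.9% on FAT-MASH, 46.2% to 49.8% with 5% prevention, 49.7% to 56.6% with 20% prevention, 27.4% to 33.5% with 5% therapy and 47.8% to 58.7% with 20% therapy. On normal diet without mannose in the second batch it supplied 42.0% to 48.3%, above the first-batch range. Without Cyp3a11, the other 39 members took 1.15% to 1.25% on normal diet, 0.732% to 0.830% on FAT-MASH, 0.531% to 0.701% with 5% prevention, 0.597% to 0.741% with 20% prevention, 0.681% to 0.772% with 5% therapy and 0.462% to 0.549% with 20% therapy. The share of the other members thus ran lower in every FAT-MASH library than in every normal diet library of that batch. Normal diet in the second batch had 0.827% to 1.19%, and its lower end lay inside the FAT-MASH range.

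**Figure D1:**
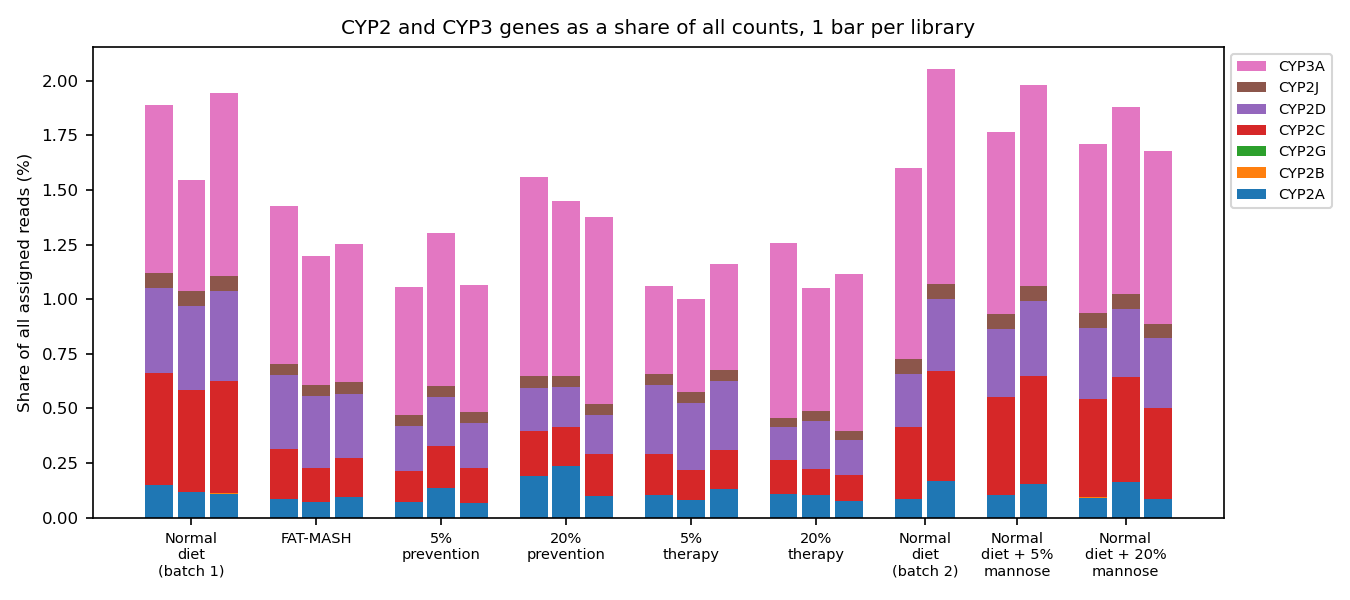
Share of all counts (percent, vertical axis) taken by the 40 members in each of the 25 libraries; each bar is 1 library, stacked by subfamily, and groups are named under the axis. The bars reach 1.55% to 1.94% on normal diet in the first batch and 1.00% to 1.16% with 5% therapy. The Cyp3a segment is the largest in each bar with 20% mannose on FAT-MASH, but a large Cyp3a segment is not particular to these bars. Cyp3a11 alone supplies 38.8% to 41.9% of member counts on FAT-MASH without mannose and 42.0% to 48.3% on second-batch normal diet without mannose.

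**Figure D2:**
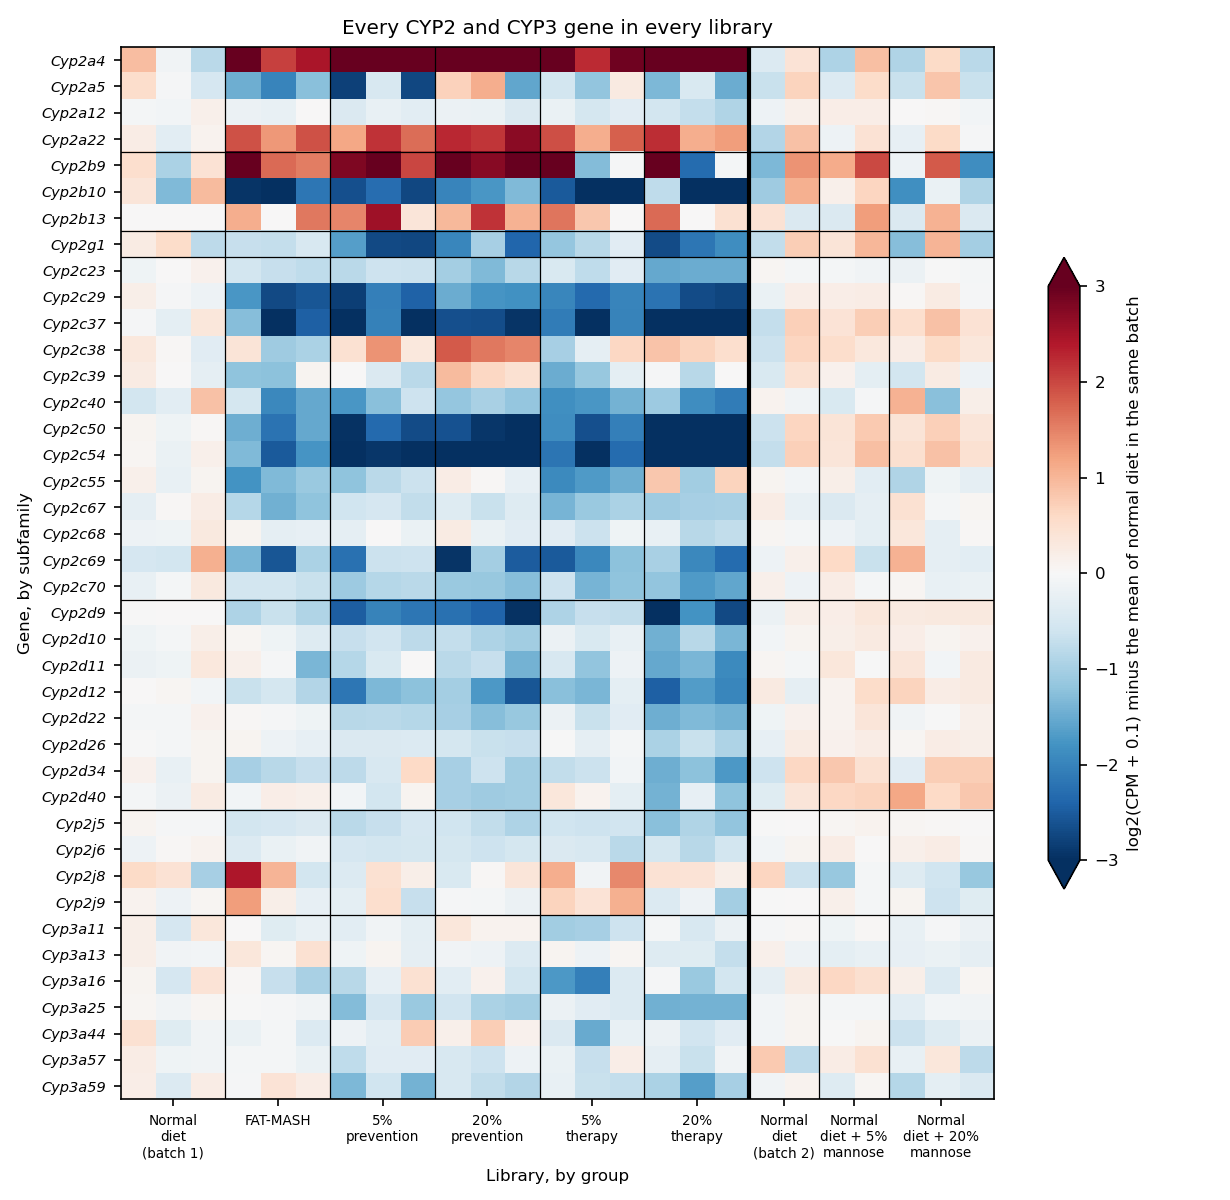
Level of each of the 40 members in each library, as log2(CPM + 0.1) minus the mean of the normal diet libraries of the same batch, with rows ordered by subfamily and columns by group. The rows of Cyp2c29, Cyp2c37, Cyp2c50 and Cyp2c54 are low in all FAT-MASH columns, and that of Cyp2a4 is high.

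FAT-MASH against normal diet addresses the regimen without mannose. Members of the Cyp2c subfamily fell: 8 of 13 were lower on FAT-MASH, led by Cyp2c29, Cyp2c37, Cyp2c54 and Cyp2c50. The CAR reporter Cyp2b10 fell most, and Cyp2a4 and Cyp2a22 rose. The 7 Cyp3a members had 0 calls and the 8 Cyp2d members 1. In all, 2 of the 40 members rose and 11 fell at an adjusted p of 0.05, where 13.7% of the 19571 genes tested were called in either direction, 7.81% higher and 5.92% lower. The median log2 fold change was -0.35 over the 40 members and 0.03 over all genes. Here and below, values in brackets are fitted log2 fold changes ± SE.

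Among the Cyp2b genes, Cyp2b10 was at 18.6, 5.72 and 28.2 CPM on normal diet and at 1.79, 1.14 and 3.16 CPM on FAT-MASH. The groups did not overlap, and the log2 fold change was -3.10 ± 0.61, adjusted p = 0.00185. Cyp2b9, a female-predominant relative, was at 0.603, 0.157 and 0.559 CPM and at 4.33, 1.50 and 1.32 CPM (2.47 ± 1.28, adjusted p = 0.231). All 3 FAT-MASH libraries were above all 3 normal diet libraries, but the test was not passed. A fit of only the groups compared called it (adjusted p = 0.0205). Cyp2b13 had 0 counts on normal diet and 0.114, 0 and 0.197 CPM on FAT-MASH, which is at least 1.17-fold higher where each normal diet library is set to a floor of 3 counts. It reached the minimum for members only through mannose-treated FAT-MASH libraries with 16, 16 and 11 counts, so its values are a description.

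Cyp2c29 was at 2165, 1879 and 1735 CPM on normal diet and at 571, 293 and 322 CPM on FAT-MASH. The lowest normal diet library was above the highest FAT-MASH library, and the change was -2.28 ± 0.23, adjusted p = 1.77e-06. Cyp2c37 went from 437, 369 and 567 CPM to 187, 56.3 and 81.8 CPM (-2.08 ± 0.44, adjusted p = 0.00349). Its relatives Cyp2c54 and Cyp2c50 fell by the same test. Cyp2c54 was at 467, 393 and 499 CPM against 181, 78.8 and 131 CPM (-1.79 ± 0.31, adjusted p = 0.000602). Cyp2c50 was at 1295, 1124 and 1266 CPM against 446, 264 and 420.2 CPM (-1.71 ± 0.22, adjusted p = 2.76e-05). In all 3 genes no FAT-MASH library reached the lowest normal diet library, and FAT-MASH replicate 1 was the highest of its group. Cyp2c55, which hydroxylates arachidonic acid and responds to CAR and PXR, was at 17.9, 13.7 and 17.0 CPM and at 4.60, 6.32 and 7.41 CPM (-1.41 ± 0.32, adjusted p = 0.00594). The other members that fell were Cyp2c67 (-1.17 ± 0.15, adjusted p = 2.97e-05), Cyp2c23 (-0.66 ± 0.12, adjusted p = 0.00116) and Cyp2c70 (-0.60 ± 0.17, adjusted p = 0.0232). The adjusted p of Cyp2c70 passed 0.05 without normal diet replicate 3 (adjusted p = 0.124), FAT-MASH replicate 1 (0.0529) and FAT-MASH replicate 3 (0.0784), with a range of 1.5e-05 to 0.124 over all alternatives. Here and below, the lowest value of such a range mostly comes from the fit without a filter on low counts, which uses no gene-specific spread. Cyp2c40, at 1.81, 2.14 and 5.07 CPM and 1.83, 0.629 and 0.873 CPM, was not called (-1.41 ± 0.47, adjusted p = 0.0511). DESeq2 (0.0226), scaling by relative log expression (0.0468) and fits that left out replicate 1 of the normal diet group (0.0353) or of the FAT-MASH group (0.0193) called it as lower, and the adjusted p was at most 0.316 over all alternatives.

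The Cyp2a genes moved differently. Cyp2a4, a testosterone hydroxylase, was at 6.14, 2.98 and 1.78 CPM on normal diet and at 44.6, 13.5 and 18.1 CPM on FAT-MASH. Every FAT-MASH library was higher, FAT-MASH replicate 1 most of all, and the change was 2.79 ± 0.72, adjusted p = 0.0127. This call is not firm: the adjusted p rose above 0.05 without normal diet replicate 2 (adjusted p = 0.0567), normal diet replicate 3 (0.0651) and FAT-MASH replicate 1 (0.0767) and with limma voom with quality weights (0.101), with a range of 6.7e-83 to 0.101 over all alternatives. Cyp2a5, the coumarin hydroxylase whose promoter is printed beside that of Cyp2a4, was at 989.7, 672 and 483 CPM and at 248, 172 and 286 CPM. Here every FAT-MASH library was lower, and the change of -1.60 ± 0.60 missed the threshold (adjusted p = 0.0843). Limma-voom (0.0218) and a fit of only the 2 groups (0.00148) called it, and the adjusted p was at most 0.231 over all alternatives. Cyp2a22 rose from 3.89, 2.66 and 3.60 CPM to 12.8, 8.42 and 12.8 CPM (1.74 ± 0.32, adjusted p = 0.00105). Cyp2a12, which hydroxylates testosterone and bile acids, was at 650.1, 646 and 756 CPM and at 607, 586 and 688 CPM (-0.13 ± 0.12, adjusted p = 0.556).

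Cyp2d9, a testosterone hydroxylase, was at 1908, 1934 and 1943 CPM on normal diet and at 1007, 1222 and 1036 CPM on FAT-MASH. It was the 1 Cyp2d member called, with -0.83 ± 0.24, adjusted p = 0.0277, and the groups lay apart. The adjusted p went above 0.05 without normal diet replicate 1 (adjusted p = 0.0574), normal diet replicate 2 (0.0607), normal diet replicate 3 (0.0638), FAT-MASH replicate 1 (0.0898) and FAT-MASH replicate 3 (0.0872), with a range of 6.12e-10 to 0.0898 over all alternatives. Cyp2d22, the mouse gene often compared with human CYP2D6, was at 339, 337 and 383 CPM and at 363, 342 and 323 CPM, with overlapping groups (-0.04 ± 0.11, adjusted p = 0.854). Cyp2d40 overlapped too, at 80.7, 74.2 and 99.7 CPM and 79.6, 97.4 and 93.6 CPM (0.09 ± 0.23, adjusted p = 0.861). Cyp2j5, an arachidonic acid epoxygenase of liver and kidney, fell from 701, 643 and 646 CPM to 456, 467 and 493 CPM (-0.49 ± 0.11, adjusted p = 0.00457). Cyp2g1, known from olfactory tissue, was near 1 CPM, with 1.59, 1.99 and 0.734 CPM and 0.782, 0.779 and 0.93 CPM (-0.79 ± 0.55, adjusted p = 0.389).

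The Cyp3a genes gave no call on the regimen. Cyp3a11 was at 7155, 4485 and 8093 CPM on normal diet and at 6389, 4954 and 5434 CPM on FAT-MASH, with overlapping groups (-0.23 ± 0.18, adjusted p = 0.444). Cyp3a25 was at 1129, 1009 and 1131 CPM and 1075, 1065 and 1009 CPM (-0.05 ± 0.15, adjusted p = 0.874), and Cyp3a13 had 0.29 ± 0.13, adjusted p = 0.168. The fetal gene Cyp3a16 (-0.53 ± 0.43, adjusted p = 0.49) and the female-predominant Cyp3a44 (-0.26 ± 0.36, adjusted p = 0.709) stayed below 6 CPM in both groups. DESeq2 and limma-voom called 0 of the 7 as well, and Cyp3a13 was the 1 Cyp3a member with an unadjusted p below 0.05.

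**Figure D3:**
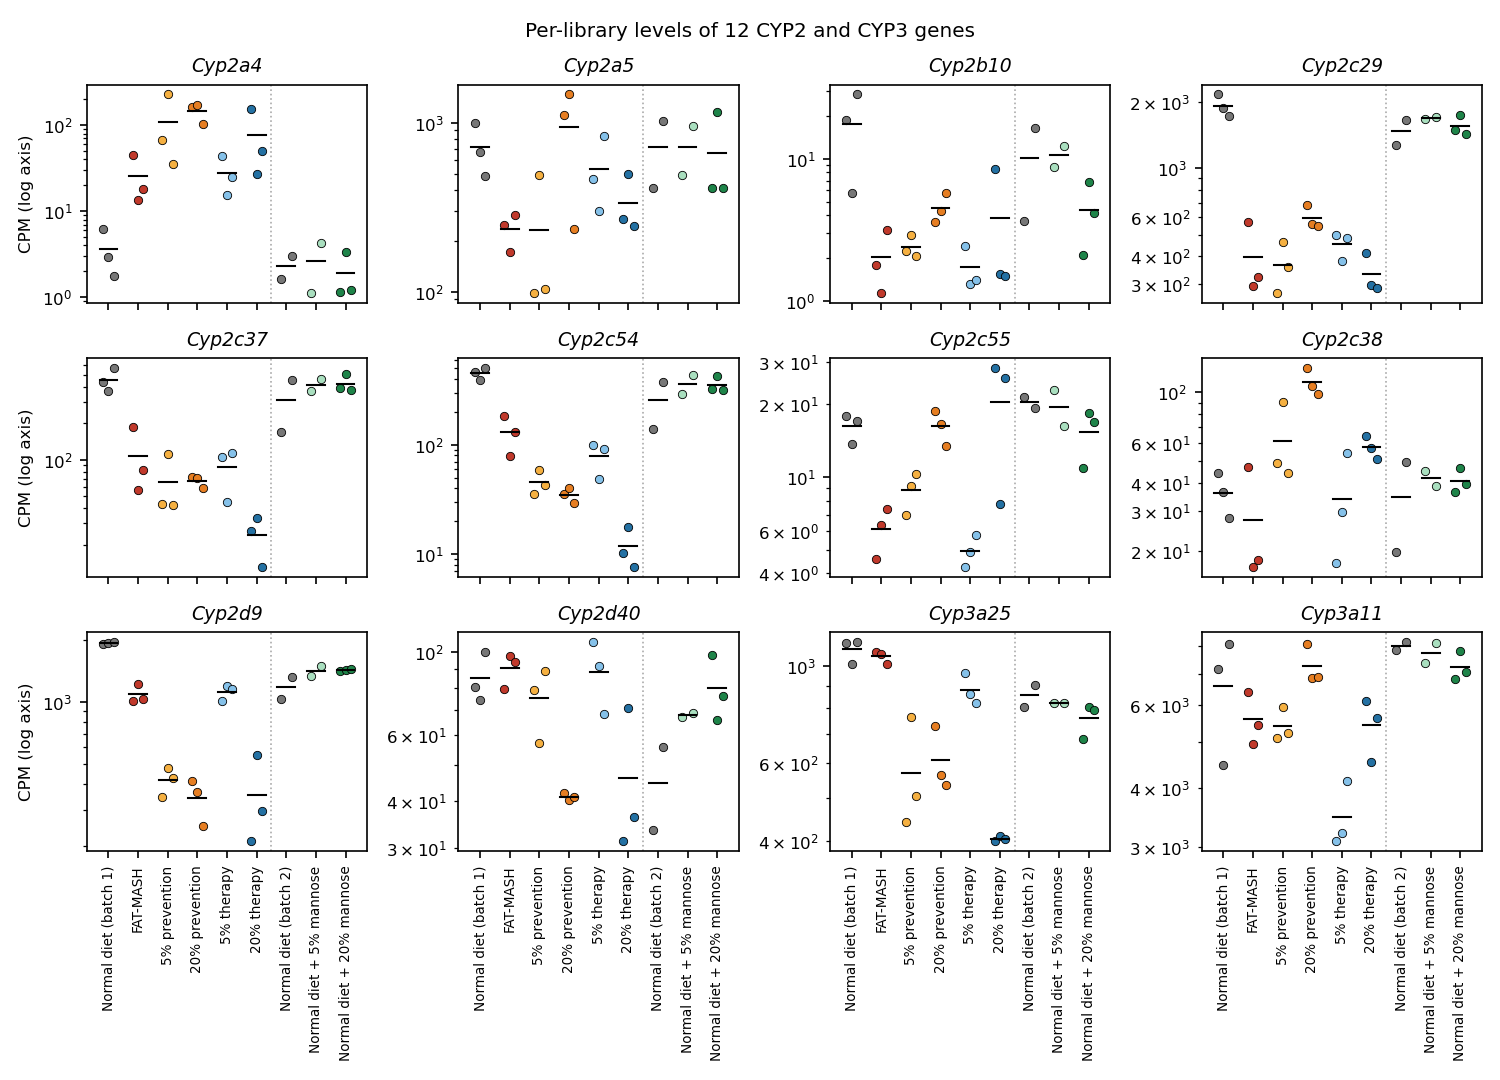
Level in CPM (log axis) of 12 members in each library; each point is 1 library, the line is the group mean, and a dotted line separates the 6 groups of the first batch from the 3 of the second. Cyp2c29 lies between 293 and 571 CPM on FAT-MASH and between 1735 and 2165 CPM on normal diet, whereas the Cyp3a11 groups overlap.

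Each mannose group was then set against the FAT-MASH mice that drank none. These 4 comparisons share the 3 FAT-MASH libraries with each other and with the comparison above, so their values are given side by side, and a chance deviation of the FAT-MASH group enters them all. With 5% mannose given throughout, 6 of the 40 members fell and 0 rose, where 2.27% of all genes were called (0.966% higher and 1.31% lower). The median was -0.15 over the members and 0.01 over all genes. With library totals as scaling, which put the median of all genes at 0.11, the split was 1 higher and 6 lower.

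Cyp2d22 changed with the smallest adjusted p, from 363, 342 and 323 CPM on FAT-MASH to 197, 202 and 195 CPM with 5% prevention (-0.79 ± 0.11, adjusted p = 0.00121). Cyp2d9 was at 346, 478 and 427 CPM, below the FAT-MASH range of 1007 to 1222 CPM (-1.38 ± 0.24, adjusted p = 0.00572). Both Cyp2d genes thus lay outside the FAT-MASH range in all 3 libraries. Cyp3a25, an abundant CYP3A enzyme of adult liver, was at 441, 766 and 505 CPM against 1009 to 1075 CPM (-0.88 ± 0.16, adjusted p = 0.00572). Cyp3a59 was at 26.2, 44.5 and 25.3 CPM against 65.4 to 90.0 CPM (-1.28 ± 0.23, adjusted p = 0.00588). Cyp2c54 and Cyp2c50 were the remaining falls, with -1.51 ± 0.31, adjusted p = 0.0128 and -0.94 ± 0.21, adjusted p = 0.0259. For Cyp2c54 the adjusted p passed 0.05 without FAT-MASH replicate 1 (adjusted p = 0.0809), 5% prevention replicate 1 (0.0843) and 5% prevention replicate 3 (0.0519), with a range of 1.13e-30 to 0.0843 over all alternatives. For Cyp2c50 it did so without FAT-MASH replicate 1 (adjusted p = 0.121), FAT-MASH replicate 3 (0.0812), 5% prevention replicate 1 (0.147) and 5% prevention replicate 3 (0.076) and with all 25 libraries and a batch term (0.0566), with a range of 4.98e-12 to 0.147 over all alternatives. Cyp2a4 ranged widely in these mice, at 66.9, 228 and 35.3 CPM, and was not called (2.10 ± 0.65, adjusted p = 0.0993).

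With 20% mannose given throughout, 18 members were called. Of the Cyp2d genes 5 of 8 fell, and so did 3 of 7 Cyp3a genes. The Cyp2c genes split, with 4 higher and 4 lower of 13. Cyp2a4 and Cyp2a5 rose. In all, 6 of the 40 rose and 12 fell, where 15.1% of all genes were called, 6.83% higher and 8.26% lower. The median was -0.33 over the members and 0.01 over all genes. Scaling by library totals put the median of all genes at 0.20 and gave 8 higher and 9 lower, so the balance of rises and falls depends on the scaling.

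Cyp2a4 was at 161, 173 and 104 CPM with 20% prevention, against 44.6, 13.5 and 18.1 CPM on FAT-MASH (2.51 ± 0.66, adjusted p = 0.0134). All 3 libraries were above all FAT-MASH libraries; the call was lost without FAT-MASH replicate 2 (adjusted p = 0.069) and FAT-MASH replicate 3 (0.0585), with a range of 4.98e-79 to 0.069 over all alternatives. Cyp2a5 was at 1111, 1468 and 234 CPM, a range that overlapped the FAT-MASH values of 248, 172 and 286 CPM because replicate 3 stayed low (1.99 ± 0.60, adjusted p = 0.0301). Its call was lost without FAT-MASH replicate 1 (adjusted p = 0.0839), FAT-MASH replicate 2 (0.118), FAT-MASH replicate 3 (0.0587), 20% prevention replicate 1 (0.0767) and 20% prevention replicate 2 (0.151) and with the replicate block (0.0611), with a range of 2.77e-53 to 0.151 over all alternatives. Cyp2c55 was at 18.8, 16.6 and 13.5 CPM, against 4.60, 6.32 and 7.41 CPM on FAT-MASH and 17.9, 13.7 and 17.0 CPM on normal diet (1.42 ± 0.32, adjusted p = 0.0051 against FAT-MASH). The 20% prevention values thus lay above all FAT-MASH values and overlapped the normal diet range. Cyp2c38 was at 128, 107 and 98.1 CPM, above every library of both other groups (2.02 ± 0.38, adjusted p = 0.00119). Cyp2c39, an oxidase of retinoic acid, rose at a low level, 4.26, 3.39 and 3.02 CPM (1.40 ± 0.41, adjusted p = 0.025), and lost its call without FAT-MASH replicate 1 (adjusted p = 0.122), FAT-MASH replicate 2 (0.116), 20% prevention replicate 1 (0.0845) and 20% prevention replicate 2 (0.0563), with a range of 0.00439 to 0.122 over all alternatives. Cyp2c67 was the sixth to rise (0.67 ± 0.15, adjusted p = 0.00425).

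The falls with 20% prevention were led by Cyp2c54, at 35.2, 40.2 and 29.2 CPM against 181, 78.8 and 131 CPM on FAT-MASH (-1.91 ± 0.31, adjusted p = 0.000401). Cyp2c50 was at 201, 163 and 149 CPM against 446, 264 and 420.2 CPM (-1.14 ± 0.21, adjusted p = 0.00121). These 2 epoxygenases had also been lower on FAT-MASH than on normal diet, so the 20% prevention group held the 3 lowest values of the 3 groups. Cyp2d9 was at 411, 364 and 249 CPM (-1.67 ± 0.25, adjusted p = 0.000166), Cyp2d22 at 178, 145 and 159.5 CPM (-1.09 ± 0.11, adjusted p = 9.24e-06) and Cyp2d40 at 42.1, 40.3 and 41.0 CPM (-1.13 ± 0.23, adjusted p = 0.00253). None of these 9 values reached the FAT-MASH range of its gene. Cyp3a25 was at 730.3, 564 and 537 CPM (-0.78 ± 0.16, adjusted p = 0.00183), Cyp3a59 had -0.90 ± 0.23, adjusted p = 0.00946 and Cyp3a13 had -0.51 ± 0.13, adjusted p = 0.0138. Cyp3a59 lost its call without FAT-MASH replicate 2 (adjusted p = 0.0512), with a range of 3.81e-10 to 0.0512 over all alternatives. Cyp3a13 lost it without FAT-MASH replicate 3 (adjusted p = 0.0743) and 20% prevention replicate 3 (0.076) and with library totals as scaling (0.0771), with a range of 0.00095 to 0.0771 over all alternatives. The remaining falls were those of Cyp2d10 (-0.74 ± 0.15, adjusted p = 0.00259), Cyp2d26 (-0.53 ± 0.11, adjusted p = 0.00208), Cyp2c70 (-0.59 ± 0.17, adjusted p = 0.0226) and Cyp2c23 (-0.38 ± 0.12, adjusted p = 0.0401). Cyp2c70 lost its call without FAT-MASH replicate 1 (adjusted p = 0.0665), FAT-MASH replicate 2 (0.0683), 20% prevention replicate 1 (0.0506), 20% prevention replicate 2 (0.0573) and 20% prevention replicate 3 (0.0797) and with library totals as scaling (0.091), with a range of 6.59e-05 to 0.091 over all alternatives. For Cyp2c23 the call went without FAT-MASH replicate 1 (adjusted p = 0.149), FAT-MASH replicate 2 (0.0851), 20% prevention replicate 1 (0.0812) and 20% prevention replicate 2 (0.217) and with library totals as scaling (0.293) and a fit of only the groups compared (0.083), with a range of 0.0116 to 0.293 over all alternatives. Without each library in turn, 12 to 16 members were called. Cyp2c29 (0.60 ± 0.22, adjusted p = 0.079) and Cyp3a11 (0.38 ± 0.18, adjusted p = 0.173) were not called, nor was Cyp2b10, at 3.60, 4.27 and 5.71 CPM (1.16 ± 0.58, adjusted p = 0.206).

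Mannose started late gave different counts at the 2 doses. With 5% therapy, 0 of the 40 members were called by edgeR, 8 had an unadjusted p below 0.05, DESeq2 called 1, Cyp3a11, and limma-voom called 0. Over all genes 0.0358% were called, 0.0255% higher and 0.0102% lower. Cyp3a11 was at 3086, 3205 and 4142 CPM in these mice, below all 3 FAT-MASH libraries, and was not called by edgeR (-0.69 ± 0.18, adjusted p = 0.261), but was by DESeq2 (adjusted p = 0.0343).

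With 20% therapy, 2 of the 40 members rose and 20 fell, where 21.4% of all genes were called, 10.2% higher and 11.3% lower. The median was -0.61 over the members and 0.00 over all genes. Of the Cyp2d genes 7 of 8 fell, of the Cyp2c genes 5 of 13, of the Cyp2j genes 3 of 4 and of the Cyp3a genes 3 of 7. Library totals as scaling put the median of all genes at 0.30, and the uncalled values of Cyp2a22, Cyp2c69, Cyp3a11, Cyp3a16 and Cyp3a44 changed sign with it.

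Cyp2c54 was at 10.2, 17.6 and 7.60 CPM with 20% therapy, against 181, 78.8 and 131 CPM on FAT-MASH (-3.47 ± 0.33, adjusted p = 7.31e-07). Cyp2c50 was at 54.0, 74.7 and 51.5 CPM against 446, 264 and 420.2 CPM (-2.65 ± 0.23, adjusted p = 2.26e-07). Cyp2c37 was at 26.0, 33.4 and 13.1 CPM against 187, 56.3 and 81.8 CPM (-2.17 ± 0.45, adjusted p = 0.00148). For these 3 genes every 20% therapy library was below every FAT-MASH library. Cyp2d22 was at 127, 141 and 131 CPM (-1.36 ± 0.11, adjusted p = 1.89e-07) and Cyp2d9 at 211, 554 and 294 CPM (-1.62 ± 0.25, adjusted p = 8.15e-05). Cyp2d40, at 31.3, 71.0 and 36.3 CPM (-0.97 ± 0.23, adjusted p = 0.00531), and Cyp2d9 were both highest in replicate 2 of this group. Cyp2d11 fell at a low level, 1.21, 1.39 and 0.923 CPM (-1.39 ± 0.38, adjusted p = 0.0132), with the call lost without FAT-MASH replicate 1 (adjusted p = 0.0845), FAT-MASH replicate 2 (0.0545) and 20% therapy replicate 3 (0.0649), with a range of 0.00132 to 0.0845 over all alternatives. Cyp2g1 was at 0.123, 0.217 and 0.295 CPM (-1.95 ± 0.59, adjusted p = 0.0222), and its call was lost without FAT-MASH replicate 3 (adjusted p = 0.0562), 20% therapy replicate 1 (0.101) and 20% therapy replicate 2 (0.0556) and with all 25 libraries and a batch term (0.0556), with a range of 0.00801 to 0.101 over all alternatives.

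Cyp3a25 was at 399.6, 410.2 and 404 CPM, well under its FAT-MASH range of 1009 to 1075 CPM (-1.37 ± 0.16, adjusted p = 3.82e-06), while Cyp3a11, at 6125, 4539 and 5628 CPM, overlapped its own FAT-MASH range (-0.04 ± 0.18, adjusted p = 0.901). Cyp3a13 fell to 121, 123 and 95.3 CPM (-0.78 ± 0.14, adjusted p = 0.000321). Cyp2j5 fell to 279, 354 and 291 CPM (-0.62 ± 0.11, adjusted p = 0.000362) and Cyp2a12 to 465, 418 and 362 CPM (-0.60 ± 0.12, adjusted p = 0.00107). Both lay below all their FAT-MASH libraries. The other 8 members that fell, in the Cyp2c, Cyp2d, Cyp2j and Cyp3a subfamilies, had log2 fold changes between -1.37 and -0.40. Among these, Cyp2d12 lost its call without 20% therapy replicate 1 (adjusted p = 0.0772), with a range of 0.00119 to 0.0772 over all alternatives. Cyp2j6 lost its call without FAT-MASH replicate 2 (adjusted p = 0.0566), FAT-MASH replicate 3 (0.0804) and 20% therapy replicate 2 (0.0925) and with library totals as scaling (0.617), with a range of 0.00905 to 0.617 over all alternatives. Cyp2j9 lost its call without FAT-MASH replicate 1 (adjusted p = 0.308), 20% therapy replicate 1 (0.0632) and 20% therapy replicate 3 (0.132) and with library totals as scaling (0.0856) and a fit of only the groups compared (0.0659), with a range of 9.95e-09 to 0.308 over all alternatives. Cyp2c55 rose to 28.2, 7.77 and 25.7 CPM, with replicate 2 close to the FAT-MASH values of 4.60, 6.32 and 7.41 CPM (1.76 ± 0.32, adjusted p = 0.000555). Cyp2c38 was at 64.4, 56.6 and 50.6 CPM, and its log2 fold change of 1.06 ± 0.37 passed narrowly (adjusted p = 0.0473). Its adjusted p exceeded 0.05 without FAT-MASH replicate 2 (adjusted p = 0.187), FAT-MASH replicate 3 (0.169), 20% therapy replicate 1 (0.128), 20% therapy replicate 2 (0.0789) and 20% therapy replicate 3 (0.0635) and with DESeq2 (0.0775) and the replicate block (0.0552), with a range of 5.22e-15 to 0.187 over all alternatives.

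**Figure D4:**
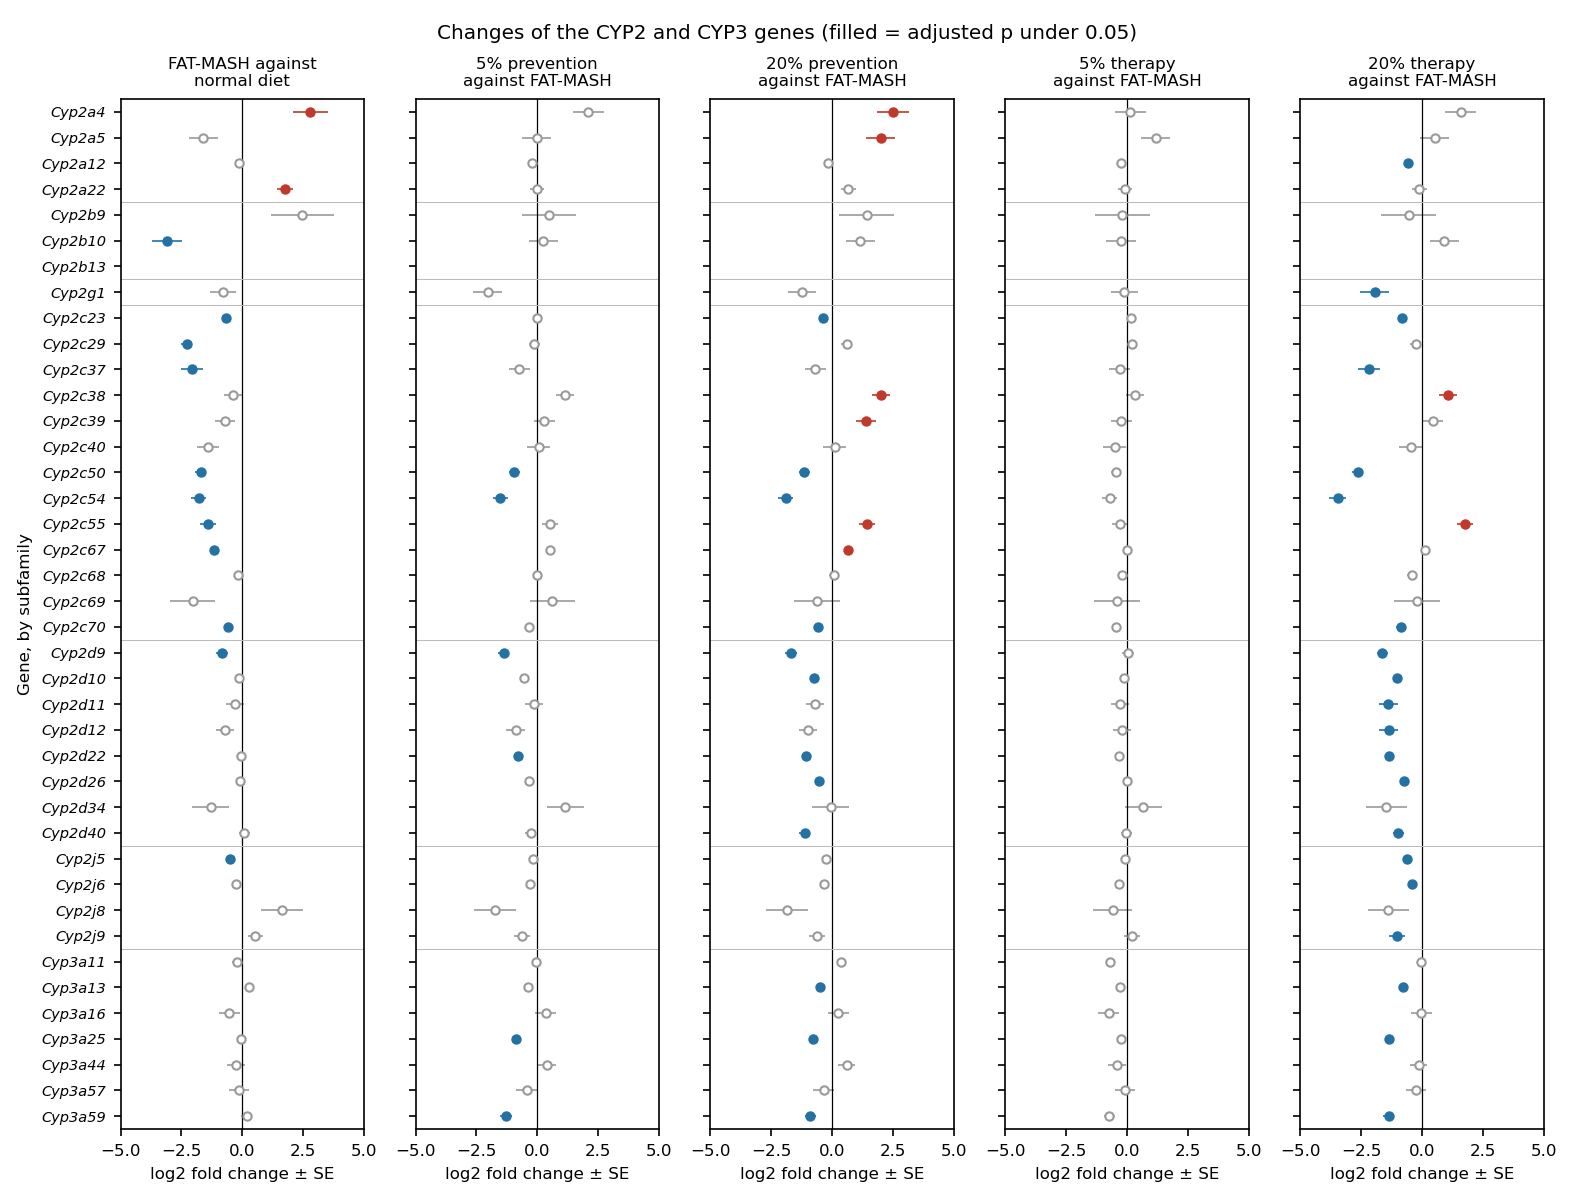
Fitted log2 fold change with SE of each member (rows) in FAT-MASH against normal diet and in the 4 mannose groups against FAT-MASH; filled points (red higher, blue lower) passed the test at an adjusted p of 0.05, and Cyp2b13, with 0 counts on normal diet, is left out. Cyp2c54 is lowest in the 20% therapy panel at -3.47, and the 5% therapy panel has no filled point.

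The doses were compared directly. Between 20% and 5% prevention edgeR called 0 members, with 10 at an unadjusted p below 0.05, 3 by limma-voom and 2 by DESeq2, where 0.445% of all genes were called, 0.107% higher and 0.337% lower. Between 20% and 5% therapy 2 members were higher and 16 lower at the larger dose, where 17.7% of all genes were called, 8.33% higher and 9.33% lower. Leaving out 20% therapy replicate 3 left 11 calls. Cyp2c54 (-2.75 ± 0.32, adjusted p = 1.01e-05), Cyp2c50 (-2.20 ± 0.22, adjusted p = 2.66e-06) and Cyp2c37 (-1.86 ± 0.44, adjusted p = 0.00578) were lower at 20%. Cyp2c55 was higher at 20% (2.04 ± 0.33, adjusted p = 0.000207). Cyp3a11 was the other member higher at 20%, 6125, 4539 and 5628 CPM against 3086, 3205 and 4142 CPM (0.64 ± 0.18, adjusted p = 0.0162), a call lost without 5% therapy replicate 1 (adjusted p = 0.0783), 5% therapy replicate 2 (0.0569), 20% therapy replicate 1 (0.0796) and 20% therapy replicate 3 (0.051), with a range of 1.29e-05 to 0.0796 over all alternatives. Cyp2d22 (-1.02 ± 0.11, adjusted p = 5.94e-06), Cyp2d9 (-1.66 ± 0.25, adjusted p = 9.79e-05) and Cyp3a25 (-1.12 ± 0.16, adjusted p = 5.32e-05) were lower at 20%.

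The length of treatment was compared at each dose. At 5%, Cyp2d9 was higher in the therapy group, 1009, 1190.3 and 1154 CPM against 346, 478 and 427 CPM (1.42 ± 0.24, adjusted p = 0.0261), the 1 member called where 0.194% of all genes were, 0.0869% higher and 0.107% lower. That call was lost without 5% prevention replicate 1 (adjusted p = 0.168), 5% prevention replicate 3 (0.0711), 5% therapy replicate 1 (0.0725) and 5% therapy replicate 3 (0.0722), with a range of 6.54e-27 to 0.168 over all alternatives. At 20%, Cyp2c50 was lower in the therapy group, 54.0, 74.7 and 51.5 CPM against 201, 163 and 149 CPM (-1.51 ± 0.22, adjusted p = 0.0127), again the 1 member called, where 0.0818% of all genes were, 0.0255% higher and 0.0562% lower. The call was lost without 20% prevention replicate 1 (adjusted p = 0.133), 20% therapy replicate 1 (0.0759) and 20% therapy replicate 3 (0.112) and with a fit of only the groups compared (0.0546), with a range of 3.81e-30 to 0.133 over all alternatives. In each of the 2 timing comparisons 17 members had an unadjusted p below 0.05. At 5%, the library-totals scaling called 1 member, limma-voom 3 and DESeq2 5. At 20%, the library-totals scaling called 2 members, limma-voom 7 and DESeq2 8.

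Set against normal diet, each mannose group combined the regimen and mannose. With 20% prevention 5 members were higher and 21 lower, where 33.3% of all genes were called, 18.2% higher and 15.1% lower. With 20% therapy 2 members were higher and 25 lower (36.1% of all genes, 19.4% higher and 16.7% lower). With 5% prevention 2 were higher and 19 lower (22.4% of all genes, 12.3% higher and 10.1% lower), and with 5% therapy 2 and 15 (12.9% of all genes, 7.04% higher and 5.89% lower). The 5 higher members with 20% prevention were Cyp2a4 (5.31 ± 0.78, adjusted p = 3.58e-05), Cyp2a22 (2.41 ± 0.32, adjusted p = 1.37e-05), Cyp2b9 (3.88 ± 1.31, adjusted p = 0.0276), Cyp2c38 (1.62 ± 0.37, adjusted p = 0.00237) and Cyp2b13. Cyp2b13, at 0.0968, 0.35 and 0.106 CPM or at least 2.08-fold above the floor of 3 counts per library, had to be high in such a group to be a member, and its call supports nothing. The call for Cyp2b9 was lost without normal diet replicate 1 (adjusted p = 0.062), normal diet replicate 2 (0.0979), normal diet replicate 3 (0.0694) and 20% prevention replicate 3 (0.108), with a range of 1.37e-21 to 0.108 over all alternatives. That for Cyp2b13 was lost without normal diet replicate 1 (adjusted p = 0.112), normal diet replicate 2 (0.115), normal diet replicate 3 (0.108), 20% prevention replicate 1 (0.058), 20% prevention replicate 2 (0.131) and 20% prevention replicate 3 (0.061) and with all 25 libraries and a batch term (0.0873) and the replicate block (0.058), with a range of 0.0216 to 0.131 over all alternatives. The lowest fold change against normal diet in these 4 comparisons was that of Cyp2c54 with 20% therapy (-5.26 ± 0.36, adjusted p = 3.65e-09). Over all comparisons of the first batch, Cyp2j8, Cyp3a16, Cyp3a44 and Cyp3a57 were the 4 members never called.

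On normal diet mannose gave no member call. With 5% mannose 0 of 37 tested members were called, 1 had an unadjusted p below 0.05, and 0% of all genes were called. With 20% mannose 0 of 37 were called by edgeR, 5 had an unadjusted p below 0.05, DESeq2 called 1, Cyp2d40, and 0.00542% of all genes were called. Cyp2d40 was at 33.6 and 55.9 CPM on normal diet and at 97.7, 65.6 and 76.4 CPM with 20% mannose (0.84 ± 0.21, adjusted p = 0.512). Cyp2c50 was at 438 and 1076 CPM, 899 and 1192 CPM with 5% and 895, 1133 and 878 CPM with 20% mannose, and Cyp2d9 at 1035 and 1315, 1339 and 1482 and 1412, 1419.6 and 1438 CPM. Normal diet replicate 4 was the lowest library for both genes. Cyp3a11 was between 6806 and 8163 CPM in all 7 libraries. Without normal diet replicate 5, which leaves replicate 4 as the 1 control and takes its spread from the other groups, 5 members were called higher in each comparison: Cyp2c37, Cyp2c38, Cyp2c50, Cyp2c54 and Cyp2d40. Without replicate 4, 0 members were called in either comparison. The fitted changes of Cyp2c37, Cyp2c38, Cyp2c50 and Cyp2c54 changed sign under 1 alternative in both.

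Whether 20% mannose had the same effect on both diets was tested in all 25 libraries with a batch term, as the change from FAT-MASH to 20% prevention minus the change on normal diet. Mannose on normal diet was in the second batch and mannose on FAT-MASH in the first, so a diet effect and a batch effect on the response cannot be told apart. The difference was positive for 1 member and negative for 7, where 5.67% of 21373 genes were called, 2.26% higher and 3.41% lower. Library totals gave 2 and 6. The 7 were Cyp2d9, Cyp2d10, Cyp2d22, Cyp2d26, Cyp2d40, Cyp2c50 and Cyp2c54.

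Cyp2d9 had a difference of -1.95 ± 0.34, adjusted p = 0.00118, from changes of -1.67 ± 0.25 on FAT-MASH and 0.28 ± 0.12 on normal diet. Cyp2d40 had -1.97 ± 0.36, adjusted p = 0.00194, Cyp2d22 had -1.10 ± 0.18, adjusted p = 0.000678, Cyp2d10 had -0.88 ± 0.21, adjusted p = 0.0155 and Cyp2d26 had -0.67 ± 0.17, adjusted p = 0.024. On normal diet the same 4 genes had changes of 0.84 ± 0.21, 0.01 ± 0.13, 0.14 ± 0.10 and 0.14 ± 0.14. Cyp2c54 had a difference of -2.36 ± 0.51, adjusted p = 0.00709 and Cyp2c50 of -1.50 ± 0.39, adjusted p = 0.022. Cyp2c55 was the positive one, with 1.82 ± 0.45, adjusted p = 0.0177 and a change of -0.40 ± 0.22 on normal diet.

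Normal diet replicate 4, 1 of the 2 normal diet libraries of the second batch, carried part of these calls. In that batch it was the lowest library for all 7 genes with a negative difference. Without it 4 members were called, 1 positive and 3 negative, and 3 of them were among the 8. The adjusted p was then 0.0657 for Cyp2c54, 0.0695 for Cyp2c55, 0.0925 for Cyp2d10, 0.158 for Cyp2c50 and 0.198 for Cyp2d26. The adjusted p of Cyp2c50 exceeded 0.05 without FAT-MASH replicate 1 (adjusted p = 0.0571), 20% prevention replicate 2 (0.0515), normal diet replicate 4 (0.158) and normal diet with 20% mannose replicate 2 (0.0536), with a range of 1.68e-13 to 0.158 over all alternatives. That of Cyp2d26 did so without FAT-MASH replicate 1 (adjusted p = 0.0712), 20% prevention replicate 2 (0.0548), normal diet replicate 4 (0.198), normal diet with 20% mannose replicate 2 (0.0575) and normal diet with 20% mannose replicate 3 (0.052) and with library totals as scaling (0.105), with a range of 0.00309 to 0.198 over all alternatives. For Cyp2d10 this held without FAT-MASH replicate 1 (adjusted p = 0.05) and normal diet replicate 4 (0.0925), with a range of 0.000106 to 0.0925 over all alternatives. The calls for Cyp2d9, Cyp2d22 and Cyp2d40 held without each library.

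**Figure D5:**
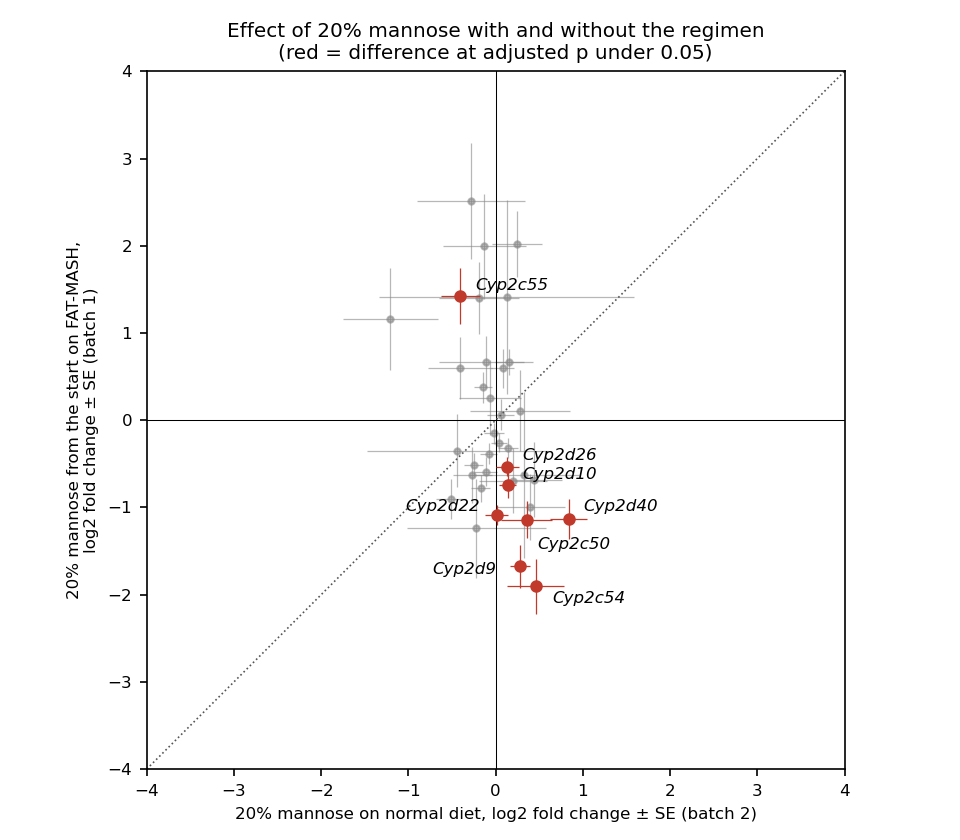
Fitted log2 fold change of each member with 20% mannose on normal diet (horizontal axis, second batch) and with 20% prevention against FAT-MASH (vertical axis, first batch); each point is 1 gene with SE, the dotted line marks equal changes, and points in red passed the test of the difference. Cyp2d9 lies at 0.28 and -1.67, and Cyp2c55 at -0.40 and 1.42.

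Genes that drive or serve these enzymes were read in the same fits. Counts in this list and those that follow stand against the shares of all genes called, which were 7.81% higher and 5.92% lower on the regimen, 6.83% and 8.26% with 20% prevention, and 10.2% and 11.3% with 20% therapy. Nr1i3 (CAR) was lower with 5% prevention (-1.04 ± 0.21, adjusted p = 0.013) and with 20% therapy (-1.12 ± 0.21, adjusted p = 0.000644), and was not called on the regimen (-0.45 ± 0.21, adjusted p = 0.164) or with 20% prevention (-0.53 ± 0.21, adjusted p = 0.0967). Nr1i2 (PXR) was not called on the regimen (0.09 ± 0.11, adjusted p = 0.67), with 20% prevention (-0.23 ± 0.11, adjusted p = 0.191) or with 20% therapy (-0.25 ± 0.11, adjusted p = 0.131). The reductase Por had 0.49 ± 0.19, adjusted p = 0.0984 with 20% prevention, and its diet difference was 1.04 ± 0.29, adjusted p = 0.0327. Hnf4a fell with 20% therapy (-0.47 ± 0.11, adjusted p = 0.00349). Of 23 regulators and partners, 3 rose and 2 fell on the regimen, 2 and 4 with 20% prevention and 2 and 12 with 20% therapy. Among the latter were the transcription factor Cebpa (-0.98 ± 0.13, adjusted p = 3.06e-05) and the electron carrier Cyb5a (-0.65 ± 0.11, adjusted p = 0.000257). Of 23 known CAR and PXR targets that are not P450s, 0 rose and 4 fell on the regimen, 7 rose and 1 fell with 20% prevention, and 6 rose and 6 fell with 20% therapy. The transporter gene Abcb1a rose with 20% prevention (1.60 ± 0.22, adjusted p = 6.92e-05).

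A list of P450 genes that the name rule leaves out gave 2 rises and 10 falls of 22 tested on the regimen, 2 and 4 with 20% prevention and 1 and 7 with 20% therapy. Cyp2e1, the main enzyme that activates CCl4, had -0.34 ± 0.17, adjusted p = 0.2 on the regimen, -0.69 ± 0.17, adjusted p = 0.037 with 5% prevention, -0.89 ± 0.17, adjusted p = 0.0014 with 20% prevention and -1.71 ± 0.17, adjusted p = 1.1e-06 with 20% therapy. Cyp1a2 fell on the regimen (-1.87 ± 0.28, adjusted p = 0.00014) and Cyp2f2 fell with 20% therapy (-1.56 ± 0.24, adjusted p = 0.0001). The diet difference of Cyp2e1 was -1.37 ± 0.28, adjusted p = 0.00524. Cyp3a41a and Cyp3a41b, female-predominant near-identical copies, have a letter after the number and so are not members. Cyp3a41a was not called on the regimen (-0.33 ± 0.48, adjusted p = 0.729), and Cyp3a41b was below 0.05 CPM in every library.

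Several marker groups moved in the same libraries as the members, and their part in the results was not tested. Of 16 male-biased liver genes 13 fell and 0 rose on the regimen, with summed levels of 17896 to 22333 CPM on normal diet and 2190.1 to 2447 CPM on FAT-MASH (the marker lists hold no member). Of 11 female-biased genes tested 2 rose and 2 fell. Of 12 hepatocyte markers 2 fell on the regimen, 5 with 20% prevention and 7 with 20% therapy, with 0 rises in each. Their summed level was 125573 to 137339 CPM on FAT-MASH and 96599 to 102191 CPM with 20% therapy. Of 10 proliferation markers, 10 rose with 20% prevention, 10 with 20% therapy and 6 with 5% prevention. Their summed level was 10.3 to 16.4 CPM on FAT-MASH, 33.9 to 51.9 CPM with 5% prevention, 93.7 to 108 CPM with 20% prevention and 134 to 427 CPM with 20% therapy. Cholangiocyte markers, 5 of 8 and 6 of 8, rose in the same comparisons, and macrophage and stellate markers, 8 of 14 and 8 of 11, rose on the regimen. Endothelial markers gave 1 rise of 7 there, and lymphocyte and neutrophil markers 2 rises and 1 fall of 10. Of 15 pericentral hepatocyte markers 0 rose and 8 fell on the regimen, 3 rose and 2 fell with 20% prevention, and 2 rose and 3 fell with 20% therapy. The pericentral sum was 7366 to 8009 CPM on FAT-MASH, 4571 to 5823 CPM with 20% prevention and 3051 to 3998 CPM with 20% therapy. Cyp2e1, which is in this list, had means of 4665, 2522 and 1422 CPM in these groups. Of 14 periportal ones 3 rose and 5 fell on the regimen, 3 fell with 5% prevention, 10 with 20% prevention and 11 with 20% therapy, with 0 rises in the last 3. The 100 most abundant genes, as a guide to abundant transcripts in general, had a median log2 fold change of -0.01 on the regimen, -0.43 with 20% prevention and -0.62 with 20% therapy, where the members had -0.35, -0.33 and -0.61.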

How the data were processed

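Liver mRNA, purified with poly-T beads per the labels' protocols, was sequenced in 25 libraries. The deposited table holds raw counts per gene that the authors made with featureCounts after STAR alignment to GRCm39. The file header names featureCounts 2.0.1 and GENCODE mouse release 31, and the submitters' processing notes name featureCounts 2.0.6. All 25 sample columns were matched to labels.

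Members and gene lists were chosen with earlier results of these data known. Genes kept by filterByExpr were scaled by TMM and tested with edgeR 4.0.16 (R 4.3.3, quasi-likelihood, Benjamini-Hochberg, 0.05), in 18 libraries of the first batch (19571 genes), 7 of the second (18462), and, for the diet difference, all 25 with batch as a covariate (21373). Names, biotypes and shared stretches came from GENCODE release 21, promoters from RefSeq (GRCm38.p6). The text names 20 members of known role, the 6 largest rises and falls per comparison among called members, a remainder of at most 5, and up to 4 genes per list. Libraries of a group always differed beyond sampling noise (the lowest chi-square divided by its degrees of freedom was 21.2). On simulated counts, 76% of 2-fold and 99% of 4-fold changes were recovered for 20% prevention against FAT-MASH. The shares were 50% and 99% for 20% mannose on normal diet, and 19% and 93% for the diet difference. The simulated counts gave every gene the same spread, and only genes above a minimum mean count were changed, so the rates need not hold for these data. These are rates per comparison, and recovery at the level and spread of single members was not tested. For 20% prevention against FAT-MASH the fitted SE was 0.11 for Cyp2d26 and 1.12 for Cyp2b9. Alternatives were other scalings, no filter, limma-voom 3.58.1, DESeq2 1.42.0, other sample sets, a replicate block and leaving out each library.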

Additional observations from a re-analysis of the deposited data

Results flagged for a closer look

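Among the 5 normal diet libraries, scaled together over both batches, 5 of the 40 members tested had 1 library far from the others; chance flags about 1 in 20 groups of values. Cyp2c50 was at 500.02 CPM in replicate 4 and at 1080 to 1239 CPM in the others. Cyp2c54 was at 159 CPM in replicate 4 and at 377 to 480.4 CPM in the others. Cyp2d26 was at 685 CPM in replicate 4 and at 949.6 to 1049 CPM in the others. Cyp2b13 was at 0.0932 CPM in replicate 4, which is 4 counts, and at 0 in the others; beside 4 libraries at 0 any count is marked this way, so it does not bear on that share. Cyp3a57 was at 0.202 CPM in replicate 5 and at 0.653 to 0.865 CPM in the others.

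The response to 20% mannose differed between FAT-MASH and normal diet, by edgeR's test of the difference itself, for 8 members. The log2 difference was 1.82 for Cyp2c55, -2.36 for Cyp2c54, -1.97 for Cyp2d40, -1.95 for Cyp2d9, -1.50 for Cyp2c50, -1.10 for Cyp2d22, -0.88 for Cyp2d10 and -0.67 for Cyp2d26. Replicate 4 was flagged above for 3 of these genes, and in the second batch it was the lowest library for every gene with a negative difference. With the batch term, mannose on normal diet is set against the second-batch normal diet libraries alone. Replicate 4 is thus 1 of 2 such controls, and 3 of the 8 calls remained without it.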

How the results depend on the processing

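No member that was called changed sign under any alternative. Single-gene alternatives were tallied for the 20 members of known role and the 6 largest called rises and falls of each comparison. Of these, 4649 kept their side of the threshold, 147 lost a call and 142 gained one. Another 40 stayed uncalled but changed sign, with a shift of at least the SE. Without a filter on low counts more members were called because edgeR's prior degrees of freedom became infinite, so that no gene-specific spread was used: 13 against 6 for 5% prevention, 6 against 0 for 5% therapy, 9 against 0 for 20% against 5% prevention, 16 against 1 for therapy against prevention at 5% and 16 against 1 at 20%, 2 and 5 against 0 for 5% and 20% mannose on normal diet, and 14 against 8 for the diet difference. DESeq2 called 10 for 5% prevention, 1 for 5% therapy, 2 for 20% against 5% prevention, 5 and 8 for therapy against prevention at 5% and 20%, and 1 for 20% mannose on normal diet; limma-voom called 3, 3 and 7 in the dose comparison of prevention and the 5% and 20% timing comparisons. For the timing comparison at 20%, library totals gave 2 and a fit of only the groups compared gave 0. The causes were not tested.

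Leaving out each library gave 10 to 13 calls for the regimen, 4 to 6 for 5% prevention, 12 to 16 for 20% prevention, 0 to 0 for 5% therapy, 19 to 21 for 20% therapy, 0 to 1 and 11 to 18 for the dose in prevention and therapy, and 0 to 2 for each timing comparison. Against normal diet it gave 20 to 22 for 5% prevention, 19 to 24 for 20% prevention, 13 to 18 for 5% therapy and 24 to 28 for 20% therapy. On normal diet it gave 0 to 5 with either dose of mannose, and 4 to 9 for the diet difference.

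Same-numbered libraries of 2 groups deviated together with correlations of -0.146 to 0.179 over 39 pairs, 1 of them above 0.1. The numbers thus gave little sign of pairing, which does not exclude that same-numbered mice shared a cage or litter. With the replicate block, 13, 6, 17, 0 and 21 members were called for the regimen, 5% prevention, 20% prevention, 5% therapy and 20% therapy, 0 and 16 for the dose, 1 and 1 for the timing, and 22, 23, 17 and 27 against normal diet for 5% prevention, 20% prevention, 5% therapy and 20% therapy. On normal diet no replicate block was fitted, because the mannose groups share no replicate number with their controls in the second batch. The diet difference, which uses the same controls, had none either. Members near 1 CPM, such as Cyp2g1 and Cyp2b9, had few counts in some libraries, and the part of depth was not tested. Cyp2b9 also differed widely between libraries of a group, with 178, 4 and 20 counts with 5% therapy.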
